A study of Rattus norvegicus with 36 samples.

Results

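The 10 genes described here belong to the cAMP-protein kinase A pathway and its feedback loops and were followed in cultured rat granulosa cells: the regulatory subunits Prkar2b and Prkar1a, the anchoring protein Akap12, the phosphodiesterases Pde4b and Pde4d, the transcriptional regulators Sik1 and Crem, the G-protein regulators Rgs2 and Rasd1, and the kinase Sgk1. They were found on the array by gene symbol alone, as every probe set whose single platform symbol, current or older, was one of the 10 names. That gave 23 probe sets of 10 genes, out of 31042 probe sets tested and 14217 named genes. Where a gene had several probe sets, values are from the one with the highest mean over all arrays unless another is named.

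Granulosa cells were released by needle puncture from the ovaries of immature female Sprague Dawley rats 21 to 27 days old, plated for 24 h with 5% serum, and then kept in serum-free medium with 0.1 µM androstenedione, which all groups received. They were treated for 48 h with HPTE, a metabolite of the pesticide methoxychlor that is known to bind estrogen receptors, at 0, 1, 5 or 10 µM. Each dose was given to unstimulated (basal) cells, to cells with 3 ng/ml FSH and to cells with 1 mM cAMP, which makes 12 groups of 3 arrays (numbers 1, 2 and 3) and 36 arrays in all. Added cAMP acts downstream of the FSH receptor, and the sources used here do not name its chemical form. No label ties the 3 samples of a group to different animals or cultures, and the p-values therefore reflect only the scatter among these samples, which may be technical. All levels are log2 intensities, and all differences are log2 differences ± SE from limma with n = 3 against 3. The SE of a probe set comes from its spread within all 12 groups, so it is the same in every comparison of 2 groups. It can be smaller or larger than the scatter of the groups compared. For Akap12 the SD of the 3 arrays was 1.39 with cAMP at 0 µM and 0.08 with FSH at 10 µM HPTE.

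FSH binds a receptor on granulosa cells that couples to the stimulatory G protein and adenylyl cyclase, and the cAMP made there frees the catalytic subunits of protein kinase A from their regulatory subunits. The kinase phosphorylates CREB-family factors, which act at cAMP response elements. Several genes turned on in this way act back on the pathway: phosphodiesterases break cAMP down, Sik1 restrains the coactivators of CREB, and Crem encodes the repressor ICER from an internal promoter. In granulosa cells this pathway drives the genes of estradiol synthesis and follicle growth.

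Promoter windows from RefSeq (build GRCr8, 250 bases before to 50 bases after each annotated start) were found for all 10 genes, 19 windows in all. They were searched for the full cAMP response element TGACGTCA and for its core TGACG, read on either strand (CGTCA on the other), with overlapping matches merged. The full element was present in 2 windows, both of Crem, against 1.83% of all 33469 windows. The core was present in 8 windows of 5 genes (Pde4d, Sik1, Crem, Rgs2 and Rasd1), against 21.2% of all windows. No match was found in these windows of Prkar2b, Prkar1a, Pde4b, Akap12 or Sgk1. The 4 windows below are both windows with the full element and, as examples of the core, those of Sik1 and Rasd1, which rose with FSH. The core matches in 2 windows of Pde4d, in the first Crem window and in Rgs2 are not shown. Capitals mark the matches, and positions are counted from the annotated start, with the first base of the transcript as 1.
Crem, second window (chr17:58984547-58984846, plus strand, full element at -56): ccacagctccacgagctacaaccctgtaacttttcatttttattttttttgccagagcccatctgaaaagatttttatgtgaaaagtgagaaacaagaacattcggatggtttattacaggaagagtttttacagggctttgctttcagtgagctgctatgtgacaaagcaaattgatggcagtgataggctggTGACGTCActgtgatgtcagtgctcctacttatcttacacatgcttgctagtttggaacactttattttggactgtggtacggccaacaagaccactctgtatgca
Crem, the third window (chr17:58985240-58985539, plus strand, full elements at -35 and 40): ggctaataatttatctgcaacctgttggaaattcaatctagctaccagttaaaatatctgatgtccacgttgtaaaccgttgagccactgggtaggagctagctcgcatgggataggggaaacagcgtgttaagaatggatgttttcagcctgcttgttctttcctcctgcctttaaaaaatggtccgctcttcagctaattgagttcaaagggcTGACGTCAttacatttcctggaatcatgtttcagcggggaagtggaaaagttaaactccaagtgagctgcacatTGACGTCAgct
Sik1 (chr20:9958597-9958896, minus strand, CGTCA at -191 and -180): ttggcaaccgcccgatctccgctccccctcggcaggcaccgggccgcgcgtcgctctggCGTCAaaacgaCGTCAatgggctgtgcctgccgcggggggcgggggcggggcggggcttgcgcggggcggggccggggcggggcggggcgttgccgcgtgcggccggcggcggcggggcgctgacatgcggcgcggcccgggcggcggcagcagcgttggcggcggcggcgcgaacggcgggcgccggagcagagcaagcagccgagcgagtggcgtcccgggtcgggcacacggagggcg
Rasd1 (chr10:45267633-45267932, minus strand, TGACG at -123): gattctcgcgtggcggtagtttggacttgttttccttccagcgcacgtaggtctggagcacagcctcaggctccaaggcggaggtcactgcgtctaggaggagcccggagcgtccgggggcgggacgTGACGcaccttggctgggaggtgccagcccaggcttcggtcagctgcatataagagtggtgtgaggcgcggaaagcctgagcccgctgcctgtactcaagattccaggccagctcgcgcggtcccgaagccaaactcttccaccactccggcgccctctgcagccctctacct
A match is a string of letters and was not tested for binding.

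Some arrays stood apart. Array 3 of every group separated from arrays 1 and 2 on the second principal component, and its log2 ratio of 3′ to 5′ Gapdh signal was 0.77 to 1.07 against 1.61 to 2.40 on the others. With no HPTE, array 2 of the FSH group and array 2 of the cAMP group did not behave like their fellows. Crem read 9.55, 8.02 and 9.26 on FSH arrays 1, 2 and 3, and 7.98, 8.93 and 7.20 on the cAMP arrays, so array 2 was the lowest with FSH and the highest with cAMP. Array 2 of the group with FSH and 1 µM HPTE was also the lowest of its group for Crem, at 7.99 beside 9.61 and 8.78. Whether the labels of these FSH and cAMP arrays 2 without HPTE were exchanged was not tested. An exchange would change every FSH and cAMP value at 0 µM HPTE, and each effect of HPTE measured from it. The labels were kept, and the calls that change without both arrays 2 are given below. These arrays were singled out by the same data. Leaving out the lowest FSH array and the highest cAMP array of a gene raises its FSH minus cAMP difference in any case. Values without both arrays 2 are therefore no independent check.

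All 8 granulosa markers measured of 9 listed lay above the median level of genes (log2 7.09), Foxl2 among them at a median of 11.09 over the arrays. So did 5 of 7 theca and stroma markers (Col3a1 at 9.92, Col1a1 at 8.69, Col1a2, Pdgfra and Dcn), 2 of 5 oocyte markers (Zp2 and Zp3), 1 of 6 endothelial markers (Kdr) and 1 of 6 surface epithelium markers (Lrrn4 at 10.15). Of 8 macrophage and leukocyte markers only Lyz2 lay above it, and the defining Ptprc and Csf1r had array medians of 5.11 and 4.88. Of the 8 granulosa markers, 7 rose with FSH (3.88% of all probe sets did) and 6 with cAMP (2.69%), and 5 fell with 10 µM HPTE and FSH (3.95%). Their summed level was 12.75 to 13.19 on basal arrays, 14.32 to 15.09 with FSH and 14.20 to 14.76 with cAMP without HPTE, and 12.39 to 12.70, 13.14 to 13.83 and 14.10 to 14.63 at 10 µM. The summed level of the 8 macrophage and leukocyte markers was 9.10 to 10.96 on basal arrays, 8.27 to 10.62 with FSH and 8.60 to 10.05 with cAMP (0 µM HPTE). With 10 µM HPTE it was 9.51 to 11.17, 9.77 to 11.47 and 8.56 to 9.55. The summed level of the 7 theca and stroma markers measured was 11.42 to 11.84 basal, 10.46 to 11.38 with FSH and 10.32 to 11.52 with cAMP at 0 µM, and 11.28 to 11.57, 11.14 to 11.69 and 10.48 to 11.19 at 10 µM. Array levels have no 0. The part of these markers' cells in the results was not tested. In bulk cultures a change in the share of a cell type and a change of RNA per cell cannot be told apart.

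With no HPTE, FSH raised 7 of the 10 genes (Prkar2b, Pde4b, Pde4d, Sik1, Crem, Rasd1 and Sgk1) and lowered Akap12, while Prkar1a and Rgs2 did not pass the test. Of all probe sets, 8.06% were called (adjusted p under 0.05), 3.88% higher and 4.18% lower. Among probe sets above the median level 15.2% were called. The median difference was 1.47 over the 10 genes and 0.00 over all genes. The 10 genes were chosen with earlier results of these data known, so setting them against all genes is no test of the pathway. With cAMP, 5 genes rose (Prkar2b, Pde4b, Sik1, Rasd1 and Sgk1) and Akap12 fell, and 7.18% of all probe sets were called, 2.69% higher and 4.49% lower. The median difference was 0.85 over the 10 genes and 0.02 over all genes. No gene of the 10 was called between FSH and cAMP by limma, where 0% of probe sets were, although 2 of the 10 genes and 1002 of all probe sets had an unadjusted p under 0.05. Both comparisons with basal cells use the same basal arrays.

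The number of genes called with FSH went from 8 without HPTE to 0 at 5 and 10 µM, while 6 or 7 were called with cAMP at every dose. At 1 µM HPTE, FSH raised or lowered the 8 genes it moved without HPTE, in the same direction (3.03% of all probe sets called, 1.39% higher and 1.64% lower). Those 8 calls at 1 µM rest on the spread shared by all 12 groups: with only the compared groups in the fit none of the 8 passed (adjusted p 0.0975 for Sgk1 to 0.333 for Crem), and 3 passed from arrays 1 and 2 alone. The share of all probe sets called in those refits was not recorded. At 5 µM none of the 10 was called (0.00322% of all), with 4 of them and 424 of all probe sets at an unadjusted p under 0.05. At 10 µM none was called (0% of all), with 1 and 497. The FSH and basal arrays did not overlap for 6 of the 10 at 5 µM (5.87% of all probe sets) and 3 at 10 µM (4.39%). The median size of the FSH minus basal difference over the 10 genes was 1.65 at 0 µM, 0.61 at 5 µM and 0.26 at 10 µM HPTE. Over all genes it was 0.17, 0.09 and 0.09. The difference was smaller at 10 µM than at 0 µM for all 10. An absent call at 5 µM is therefore not an absent difference. For cAMP against basal cells, 6 genes were called at 1 µM (8.71% of all probe sets, 4.24% higher), 6 at 5 µM (8.08%, 3.99% higher) and 7 at 10 µM (6.18%, 2.73% higher), the seventh being Pde4d. The median size was 1.05 at 0 µM and 1.59 at 10 µM, and 2 of the 10 genes had a smaller difference at 10 µM.

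**Figure D1:**
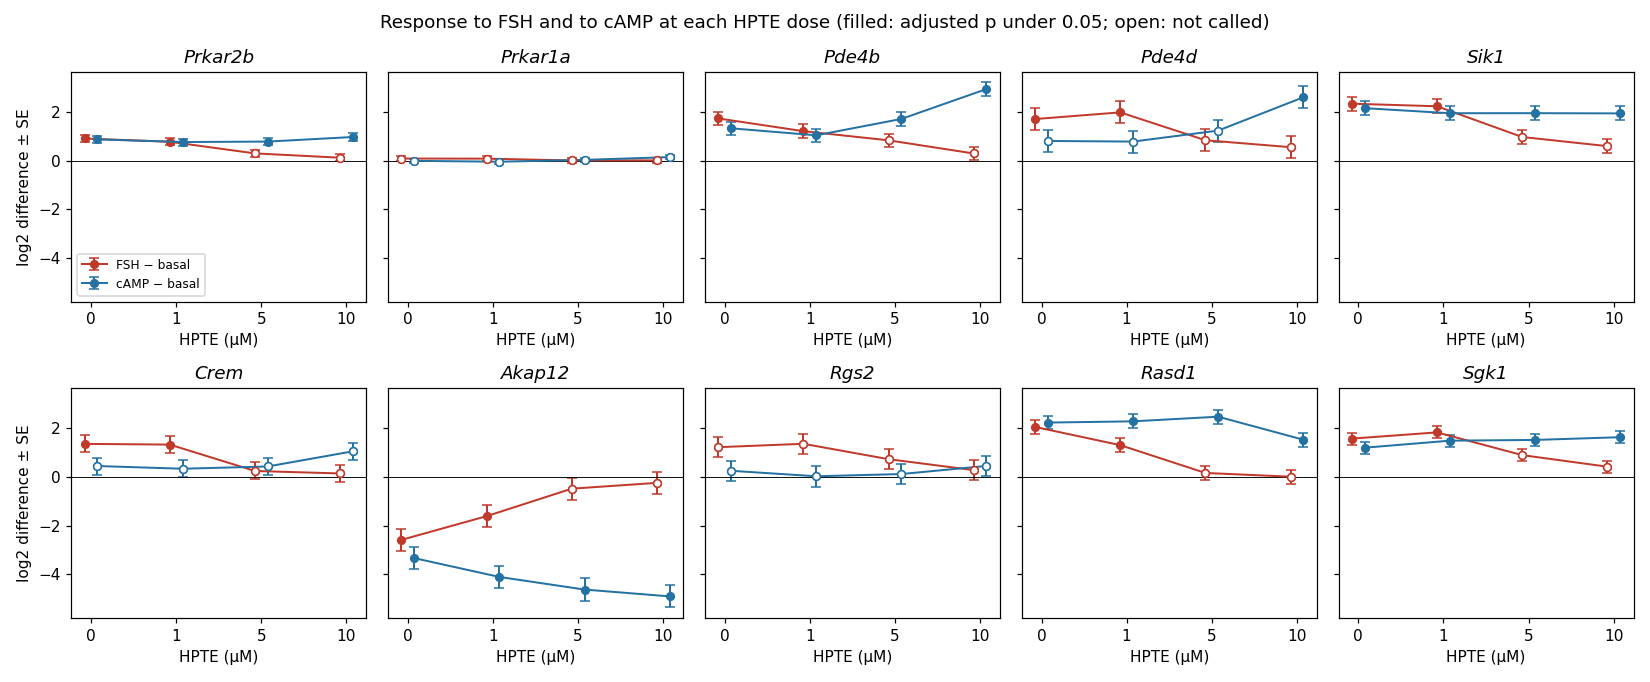
Log2 difference ± SE of FSH (red) and cAMP (blue) against basal cells at the same HPTE dose (µM), for each of the 10 genes, with filled points for an adjusted p under 0.05. The red lines come toward 0 at 5 and 10 µM HPTE, where no FSH point is filled, and the blue lines stay away from 0 for Prkar2b, Pde4b, Sik1, Akap12, Rasd1 and Sgk1.

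Set against their own controls without HPTE, FSH-treated cells changed in 5 of the 10 genes at 5 µM (6.54% of all probe sets, 3.45% higher). At 10 µM they changed in 7 (8.45%, 4.51% higher). None was called at 1 µM (0.00644%), where 2 of the 10 and 896 of all probe sets had an unadjusted p under 0.05. At 10 µM Prkar2b, Pde4b, Sik1, Crem, Rasd1 and Sgk1 fell and Akap12 rose. In cAMP-treated cells none of the 10 was called at 1 µM (0%) or 5 µM (0.00322%). None had an unadjusted p under 0.05 at these doses, where 743 and 2624 of all probe sets did. At 10 µM 2 were called (1.69%, 1.20% higher): Pde4b rose and Rasd1 fell. In basal cells none was called at 1 µM (0%), 5 µM (0.0129%) or 10 µM (1.02%). An unadjusted p under 0.05 by limma was reached by 0, 0 and 2 genes, and by 159, 527 and 1999 of all probe sets. Between FSH-treated and cAMP-treated cells at the same dose, 1 gene was called at 1 µM (0.409%), 4 at 5 µM (5.59%) and 7 at 10 µM (4.76%, 2.80% higher). Prkar2b, Sik1 and Rasd1 were lower with FSH than with cAMP at 5 µM, joined at 10 µM by Pde4b, Pde4d and Sgk1, and Akap12 was higher with FSH at 1, 5 and 10 µM. With the array number as a block, Rasd1 (adjusted p 0.0196) and Rgs2 (0.0311) also passed between FSH and cAMP at 1 µM, which makes 3 genes there, and Pde4b (0.00202) at 5 µM. From arrays 1 and 2 alone the counts between FSH and cAMP were 0, 2 and 4 at 1, 5 and 10 µM. With the second probe sets they were 0, 2 and 3, and with only the compared groups 0, 2 and 8. At 10 µM, 3.81% of all probe sets were called from arrays 1 and 2 alone and 4.9% with only the compared groups. At 1 and 5 µM HPTE the shares in refits were not recorded, for this comparison or for the others in this paragraph. Prkar2b, Rasd1 and Sgk1 have 1 probe set, which was kept in the second-probe-set counts. All calls in those counts in this paragraph were theirs. For 5 µM HPTE with FSH, 3 genes were called with only the compared groups and 3 with the second probe sets, and without both arrays 2 Pde4d (-1.69, adjusted p 0.0133) and Crem (-1.52, adjusted p 0.000834) passed as well. The block also added Pde4b (0.00563) and Crem (0.0349) for 5 µM HPTE with FSH and Pde4d (0.0253, or 0.0426 without both arrays 2) for cAMP against basal cells at 5 µM.

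The change of the HPTE effect with the stimulus was tested as an interaction at 10 µM. The effect of HPTE was lower with FSH than in basal cells for 4 genes, Prkar2b, Pde4b, Sik1 and Rasd1 (2.17% of all probe sets called). It differed between FSH-treated and cAMP-treated cells for 6 genes (1.88%, 1.03% higher), lower with FSH for Prkar2b, Pde4b, Pde4d, Sik1 and Sgk1 and higher for Akap12. Between cAMP-treated and basal cells no gene was called by limma (0.129% of all, 0.110% higher). Here 3 of the 10 and 1162 of all probe sets had an unadjusted p under 0.05. With the array number as a block, Akap12 (adjusted p 0.0115) and Sgk1 (0.0264) also passed for FSH against basal cells, Crem (0.0201) and Rasd1 (0.0116) for FSH against cAMP, and Pde4b (0.00179) for cAMP against basal cells. Without FSH array 1 at 0 µM Akap12 passed, and without FSH array 2 at 0 µM Crem and Sgk1 passed, for FSH against basal cells. For FSH against cAMP, Crem passed without array 2 of either group at 0 µM, and Rasd1 without cAMP array 3 at 0 µM. Without both arrays 2, Akap12 (1.88, adjusted p 0.0213), Crem (-1.68, adjusted p 0.0112) and Sgk1 (-1.44, adjusted p 0.00392) passed for FSH against basal cells, and Crem (-2.73, adjusted p 0.000116) and Rgs2 (-2.05, adjusted p 0.0241) for FSH against cAMP. The 6 calls between FSH and cAMP became 3 with only the compared groups, 2 from arrays 1 and 2 alone and 3 with the second probe sets. The 4 calls between FSH and basal cells became 4, 1 and 2, and in the first of these Prkar2b was lost (adjusted p 0.133) and Akap12 gained (adjusted p 0.0306). In these second-probe-set counts only Crem, for FSH against cAMP, was called from a second probe set. The other calls there were of genes with a single probe set, which was kept. For the interactions, the share of all probe sets called was not recorded with only the compared groups or from arrays 1 and 2 alone. The lower counts in those fits therefore cannot be set against it. The Prkar2b call between FSH and cAMP (-0.89 ± 0.20, adjusted p 0.0157) was lost without array 1 of cAMP or array 3 of FSH at 0 µM, or without array 2 of FSH or array 3 of cAMP at 10 µM (-0.95 to -0.81).

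**Figure D2:**
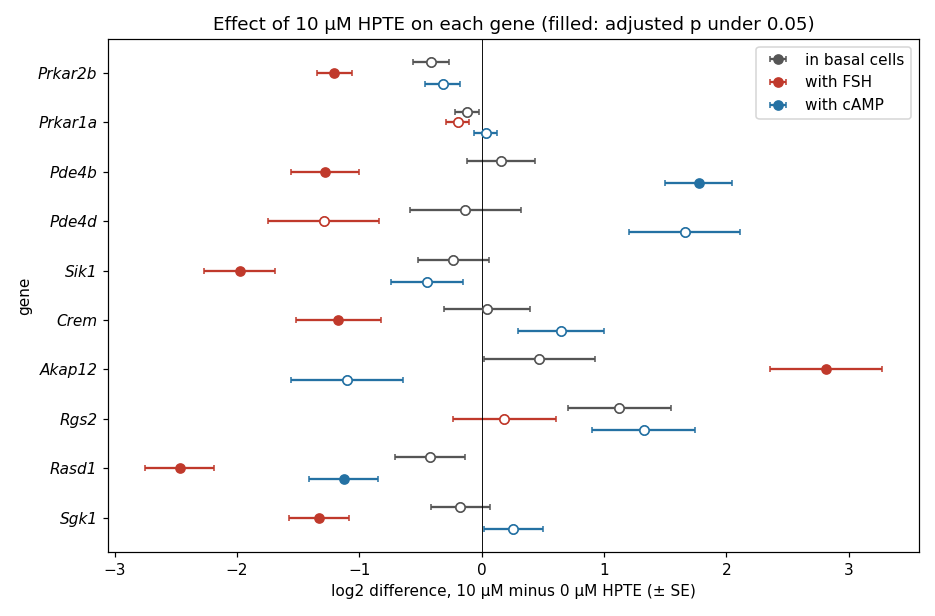
Log2 difference ± SE between 10 and 0 µM HPTE for each gene in basal cells (grey), with FSH (red) and with cAMP (blue), filled where the adjusted p was under 0.05. With FSH, 6 genes lie left of 0 and Akap12 far right as filled points, and Pde4b lies on opposite sides of 0 with FSH (-1.28) and with cAMP (1.77).

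Prkar2b encodes the RII-beta regulatory subunit, which holds the catalytic subunits inactive and places the kinase at anchoring proteins. Its level without HPTE was 12.06, 12.39 and 12.68 on the basal arrays, 13.29, 13.17 and 13.42 with FSH, and 13.11, 13.37 and 13.30 with cAMP. Every stimulated array lay above every basal array, and the FSH and cAMP arrays overlapped. The rise was 0.92 ± 0.14 with FSH (1.89-fold, adjusted p 6.0e-05) and 0.88 ± 0.14 with cAMP (1.84-fold, adjusted p 0.000101, or 0.066 with only the compared groups in the fit). At 10 µM HPTE the levels were 11.83, 11.98 and 12.06 basal, 12.12, 11.98 and 12.16 with FSH, and 12.83, 12.94 and 13.05 with cAMP. The FSH arrays now overlapped the basal arrays and the cAMP arrays remained above both. The effect of 10 µM HPTE was -1.21 ± 0.14 with FSH (adjusted p 1.1e-06), -0.32 ± 0.14 with cAMP (adjusted p 0.464) and -0.42 ± 0.14 in basal cells (adjusted p 0.292, or 0.0319 with the array number as a block). At 5 µM the FSH arrays stood between, at 12.73, 12.39 and 12.89, a fall of 0.63 from FSH alone (adjusted p 0.00551, or 0.0717 without array 2 of the group with FSH and 5 µM HPTE). The interaction of FSH against basal cells was -0.79 ± 0.20 (adjusted p 0.0348), a call that held without basal array 3 or FSH array 2 at 0 µM or basal array 1 at 10 µM and was lost without any 1 of the other 9, with values from -0.94 to -0.63. FSH stood below cAMP at 5 µM by a difference of -0.49 ± 0.14 (adjusted p 0.0432), a call that held on leaving out FSH array 3 and was lost without any other array (-0.60 to -0.34).

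Prkar1a, the RI-alpha subunit, moved least of the 10 by the brightest probe sets. Its group means ran from 12.38 to 12.60 over the 12 groups, a range of 0.22, and none of the 24 comparisons called it. FSH against basal cells gave 0.09 ± 0.09 (adjusted p 0.839) and cAMP gave 0.00 ± 0.09 (adjusted p 1.000). Its levels without HPTE were 12.53, 12.43 and 12.55 basal, 12.74, 12.44 and 12.62 with FSH, and 12.47, 12.56 and 12.49 with cAMP, and all 3 groups overlapped. The effect of 10 µM HPTE with FSH was -0.20 ± 0.09 (adjusted p 0.291). Of its dimmer probe sets, 1388375_at ranged by 0.24 over the group means and 1386905_at (mean 9.09) by 0.54. The latter gave 0.50 ± 0.20 with FSH against basal cells without HPTE (adjusted p 0.166).

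Akap12 encodes a large scaffold, also called gravin, that binds protein kinase A and other signalling enzymes at the membrane. It was the one gene of the 10 that fell with both stimuli. Its level was 12.18, 11.52 and 11.68 on the basal arrays, 10.00, 8.28 and 9.35 with FSH, and 8.15, 9.98 and 7.26 with cAMP. Neither stimulated group overlapped the basal arrays, and array 2 was the lowest with FSH and the highest with cAMP. The difference was -2.58 ± 0.46 with FSH (5.98-fold lower, adjusted p 0.000254) and -3.33 ± 0.46 with cAMP (10.1-fold lower, adjusted p 8.3e-06). Without both arrays 2 these were -2.12 (adjusted p 0.000134) and -4.09 (adjusted p 1.6e-08), and FSH then stood 1.98 above cAMP (adjusted p 0.0035), where all arrays gave 0.75 ± 0.46 (adjusted p 1.000).

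Akap12 rose with 5 and 10 µM HPTE in FSH-treated cells. With FSH the mean was 9.21 at 0 µM, 10.38 at 1 µM, 11.80 at 5 µM and 12.03 at 10 µM, beside basal means of 11.79 to 12.28. With cAMP the mean was 8.46, 7.88, 7.65 and 7.36. The arrays at 10 µM read 12.12, 11.99 and 11.97 with FSH, 7.19, 7.74 and 7.15 with cAMP and 12.39, 12.26 and 12.15 basal, with no overlap between any of the 3 groups. The effect of 10 µM HPTE was 2.81 ± 0.46 with FSH (adjusted p 8.3e-05) and -1.10 ± 0.46 with cAMP (adjusted p 0.371, -0.34 without both arrays 2). Their difference was 3.92 ± 0.64 (adjusted p 0.000724). FSH against cAMP at 10 µM gave a 25.4-fold higher level with FSH (4.67 ± 0.46, adjusted p 1.0e-07). At 1 µM the fall with FSH was near the threshold (-1.61 ± 0.46, adjusted p 0.0494), and leaving out any array but FSH array 2 ended the call (-2.02 to -1.28). FSH stood 2.50 ± 0.46 above cAMP at 1 µM (adjusted p 0.00845), lost without FSH array 2 or cAMP array 3 (2.08 to 2.83).

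Pde4b and Pde4d encode enzymes of the PDE4 family, which hydrolyse cAMP. Pde4b read 9.10, 9.16 and 9.02 on the basal arrays, 11.28, 10.65 and 10.58 with FSH, and 10.57, 10.54 and 10.19 with cAMP. The stimulated arrays lay above the basal ones, and the FSH arrays lay above the cAMP arrays with a difference that did not pass (0.41 ± 0.28, adjusted p 1.000). The rise was 1.74 ± 0.28 with FSH (3.35-fold, adjusted p 7.1e-05) and 1.34 ± 0.28 with cAMP (2.53-fold, adjusted p 0.00167). With 10 µM HPTE it read 9.98, 9.31 and 9.38 with FSH, 12.21, 12.17 and 12.24 with cAMP, and 9.42, 9.37 and 8.96 basal. The cAMP arrays at 10 µM were the highest of all 36, and the FSH arrays overlapped the basal ones. The effect of 10 µM HPTE was -1.28 ± 0.28 with FSH (adjusted p 0.00233) and 1.77 ± 0.28 with cAMP (3.42-fold, adjusted p 0.000267), with 0.16 ± 0.28 in basal cells (adjusted p 1.000). The difference between the effects with FSH and with cAMP was -3.05 ± 0.39 (adjusted p 3.9e-05).

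Pde4b with cAMP was 10.43 at 0 µM, 10.39 at 1 µM, 10.94 at 5 µM and 12.20 at 10 µM HPTE, with its highest mean at 10 µM. Its rise over basal cells at 1 µM was 1.22 ± 0.28 with FSH (adjusted p 0.00938) and 1.05 ± 0.28 with cAMP (adjusted p 0.013). The first call was lost without array 1 of the group with FSH and 1 µM HPTE or without array 2 of the basal group at that dose, and its difference then ran from 0.87 to 1.46. The second was lost without array 1 or 2 of the cAMP group or array 2 of the basal group at that dose (0.83 to 1.38). The interaction with FSH against basal cells was -1.44 ± 0.39 (adjusted p 0.048). It held without FSH array 2 at 0 µM, basal array 3 at 10 µM or FSH array 1 at 10 µM and was lost without any 1 of the other 9 (-1.65 to -1.22).

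Pde4d was lower and more variable. It read 6.60, 6.21 and 6.10 basal, 8.74, 6.75 and 8.58 with FSH, and 7.07, 7.58 and 6.71 with cAMP. Array 2 with FSH lay just above the basal arrays and within the range of the cAMP arrays. The difference was 1.72 ± 0.45 with FSH (3.29-fold, adjusted p 0.014) and 0.82 ± 0.45 with cAMP (adjusted p 0.422). The FSH call was lost without FSH array 1 (1.36, adjusted p 0.112), FSH array 3 (1.44, adjusted p 0.106), basal array 2 (1.67, adjusted p 0.0522) or basal array 3 (1.62, adjusted p 0.0583), and without both arrays 2 the difference was 2.36 (adjusted p 0.00043). It did not pass with only the compared groups (adjusted p 0.170) or from arrays 1 and 2 alone (1.34, adjusted p 0.247). FSH against cAMP was 0.90 ± 0.45 on all arrays (adjusted p 1.000) and 1.77 without both arrays 2 (adjusted p 0.0457).

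With 10 µM HPTE, Pde4d read 6.87, 6.39 and 6.93 with FSH and 8.54, 8.41 and 9.40 with cAMP, against 5.83, 6.06 and 6.62 in basal cells. The cAMP arrays lay above all others at that dose. The rise of cAMP over basal cells was 2.61 ± 0.45 (6.12-fold, adjusted p 0.000239). The effect of HPTE did not pass with cAMP (1.66 ± 0.45, adjusted p 0.0593) or with FSH (-1.29 ± 0.45, adjusted p 0.0825). Both passed with the array number as a block (adjusted p 0.0073 and 0.0194) and without both arrays 2 (1.89, adjusted p 0.014, and -1.93, adjusted p 0.00355). The difference between the effects was -2.95 ± 0.64 (adjusted p 0.00973). It did not pass with only the compared groups (adjusted p 0.0637), from arrays 1 and 2 alone (-2.26, adjusted p 0.365) or with the second probe set (-1.21, adjusted p 0.0778). With 1 µM HPTE the FSH arrays read 8.59, 6.68 and 8.68, with array 2 again the low one, and the rise of 1.99 ± 0.45 (adjusted p 0.00946) was lost without array 1 or 3 with FSH or array 1 of the basal group (1.64 to 2.65 over all 6).

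**Figure D3:**
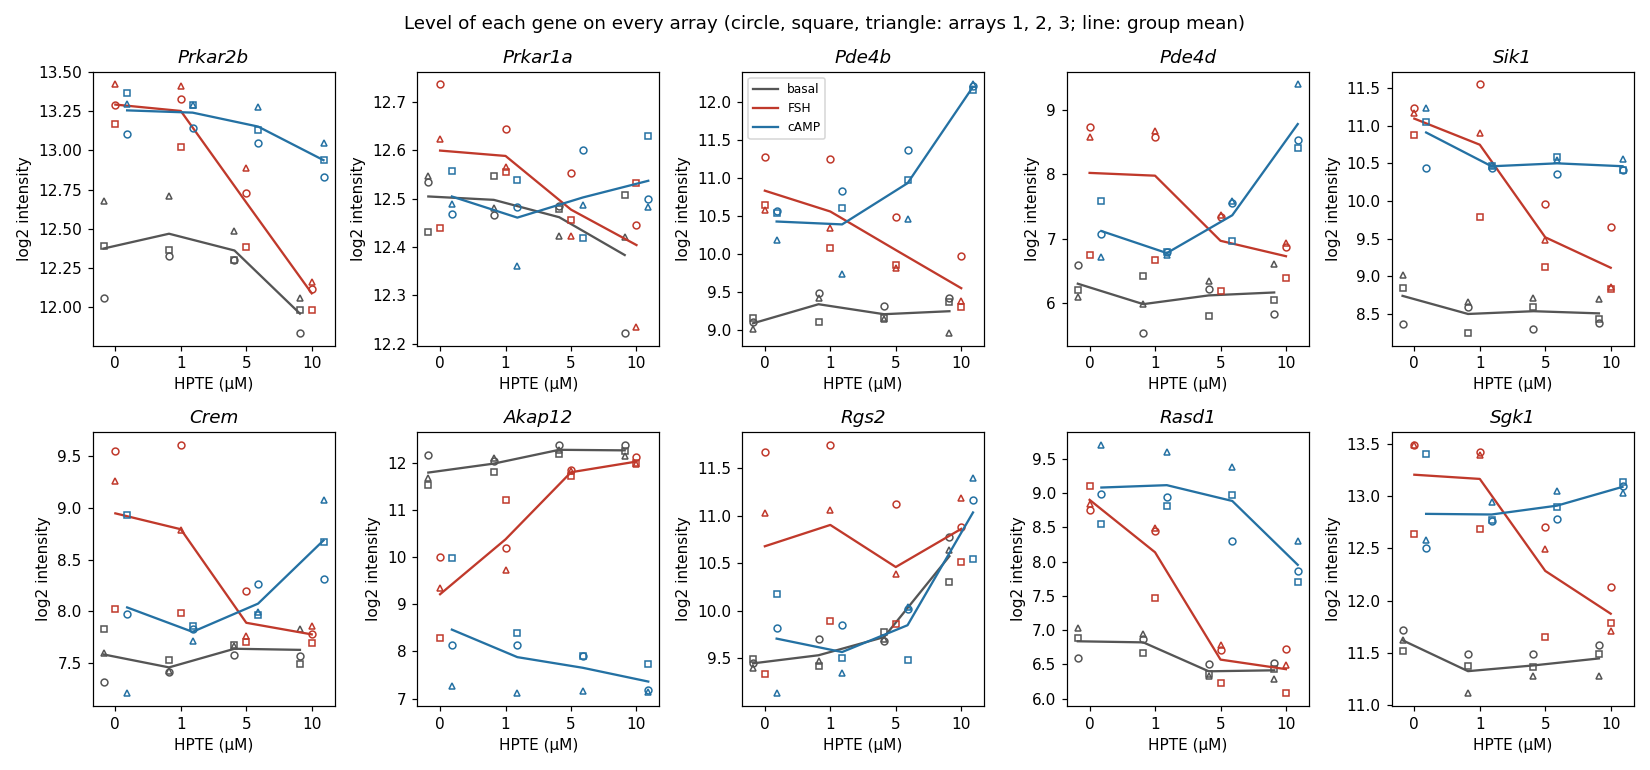
Log2 intensity of each gene on every array against HPTE dose (µM), for basal (grey), FSH (red) and cAMP (blue) cells, with circles, squares and triangles for arrays 1, 2 and 3 and lines through the group means. The red lines of Prkar2b, Sik1, Rasd1 and Sgk1 drop and that of Akap12 climbs toward the grey ones from 0 to 10 µM, while Pde4b and Pde4d with cAMP reach their highest means, 12.20 and 8.78, at 10 µM.

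Sik1, a kinase that keeps the CREB coactivators out of the nucleus, had the largest rise of the 10 with FSH. It read 8.36, 8.84 and 9.02 on the basal arrays, 11.23, 10.87 and 11.17 with FSH, and 10.44, 11.05 and 11.24 with cAMP. All stimulated arrays lay above the basal arrays, and FSH and cAMP overlapped. The rise was 2.35 ± 0.29 with FSH (5.10-fold, adjusted p 2.2e-06) and 2.17 ± 0.29 with cAMP (4.49-fold, adjusted p 6.3e-06). Over basal cells FSH gave 2.24 at 1 µM, 0.98 at 5 µM and 0.60 at 10 µM HPTE, and cAMP gave 1.96, 1.96 and 1.95. At 10 µM the arrays read 9.66, 8.83 and 8.86 with FSH, 10.42, 10.42 and 10.55 with cAMP, and 8.39, 8.44 and 8.70 basal. The FSH arrays stayed just above the basal arrays and below the cAMP arrays. HPTE at 10 µM gave -1.98 ± 0.29 with FSH (adjusted p 2.4e-05), -0.45 ± 0.29 with cAMP (adjusted p 0.774) and -0.23 ± 0.29 in basal cells (adjusted p 1.000). The interaction with FSH against basal cells was -1.75 ± 0.41 (adjusted p 0.0177, lost without basal array 1 at 0 µM or FSH array 2 or 3 at 10 µM, -2.02 to -1.56), and that against cAMP-treated cells was -1.53 ± 0.41 (adjusted p 0.0482, kept without FSH array 2 or cAMP array 2 or 3 at 0 µM or FSH array 1 at 10 µM and lost without any 1 of the other 8, -1.80 to -1.29). The difference of FSH from cAMP at 5 µM, -0.98 ± 0.29 (adjusted p 0.0418), held without FSH array 1 and was lost without any other array (-1.20 to -0.78).

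Crem encodes both activators and repressors of cAMP response elements, and 2 of its windows above hold the full element. Its level was 7.32, 7.83 and 7.59 on the basal arrays, 9.55, 8.02 and 9.26 with FSH, and 7.98, 8.93 and 7.20 with cAMP. The FSH arrays lay above the basal arrays and the cAMP arrays overlapped them. The difference was 1.37 ± 0.35 with FSH (2.58-fold, adjusted p 0.0107) and 0.46 ± 0.35 with cAMP (adjusted p 0.661). Without both arrays 2 it was 1.83 (adjusted p 7.1e-05) and 0.01 (adjusted p 0.993), and FSH then stood 1.82 above cAMP (adjusted p 0.00116), where all arrays gave 0.91 ± 0.35 (adjusted p 1.000). The FSH call was lost without basal array 1 (1.23, adjusted p 0.0635), FSH array 1 (1.06, adjusted p 0.0994) or FSH array 3 (1.21, adjusted p 0.073), with only the compared groups (adjusted p 0.151) and from arrays 1 and 2 alone (1.21, adjusted p 0.156).

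With FSH and 10 µM HPTE, Crem read 7.78, 7.70 and 7.85, overlapping the basal arrays at 7.57, 7.49 and 7.82. The effect of HPTE with FSH was -1.17 ± 0.35 (adjusted p 0.0317), and leaving out any array but FSH array 2 at 0 µM ended the call, with values from -1.63 to -0.87, as did fitting only the compared groups (adjusted p 0.162) or arrays 1 and 2 alone (-1.05, adjusted p 0.238). FSH against cAMP at 10 µM gave -0.91 ± 0.35 (adjusted p 0.179, or 0.0333 without both arrays 2 and 0.0404 with only the compared groups). With cAMP the arrays at 10 µM read 8.31, 8.67 and 9.08 and overlapped those without HPTE (0.65 ± 0.35, adjusted p 0.627, or 1.10 and adjusted p 0.0381 without both arrays 2). The rise of cAMP over basal cells at 10 µM was 1.06 ± 0.35 (adjusted p 0.074), and it passed without both arrays 2 (adjusted p 0.00874) and with the array number as a block (adjusted p 0.0375). At 1 µM the FSH rise was 1.34 ± 0.35 (adjusted p 0.0279, lost without any array but FSH array 2, 0.93 to 1.74).

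Rgs2 encodes a protein that speeds the shut-off of G-protein alpha subunits. It read 9.46, 9.49 and 9.39 on the basal arrays, 11.67, 9.33 and 11.03 with FSH, and 9.82, 10.17 and 9.13 with cAMP. FSH array 2 lay below every basal array while the other two lay well above them. The difference with FSH was 1.23 ± 0.42 (adjusted p 0.0752) and passed without FSH array 2 (1.90, adjusted p 0.00111), without both arrays 2 (1.90, adjusted p 0.000897) and with the array number as a block (1.23, adjusted p 0.0113). With cAMP it was 0.26 ± 0.42 (adjusted p 0.907). FSH against cAMP gave 0.97 ± 0.42 on all arrays (adjusted p 1.000) and 1.88 without both arrays 2 (adjusted p 0.00978). At 1 µM HPTE array 2 was again the low one with FSH (11.75, 9.90 and 11.06), and the difference of 1.37 ± 0.42 (adjusted p 0.0819) passed without it (1.87, adjusted p 0.00644), without both arrays 2 at 0 µM (adjusted p 0.015) and with the block (adjusted p 0.00939). FSH against cAMP at 1 µM gave 1.34 ± 0.42 (adjusted p 0.220, or 0.0401 without both arrays 2 at 0 µM).

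Rgs2 was also the one gene of the 10 whose basal level had a higher mean with 10 µM HPTE by more than 1 log2 unit. The basal arrays read 10.78, 10.30 and 10.64 at 10 µM and the cAMP arrays 11.16, 10.55 and 11.39, in both cases with no overlap with 0 µM. The differences were 1.13 ± 0.42 in basal cells (adjusted p 0.391) and 1.33 ± 0.42 with cAMP (adjusted p 0.137), and neither passed. The former passed with only the compared groups (adjusted p 0.0486). The latter passed with the block (adjusted p 0.0161) and without both arrays 2 (1.56, adjusted p 0.0199). With FSH the arrays at 10 µM (10.88, 10.51 and 11.19) overlapped those at 0 µM, with a difference of 0.18 ± 0.42 (adjusted p 0.955). At 10 µM the basal, FSH and cAMP arrays overlapped.

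Rasd1 encodes a Ras-like G protein that acts on heterotrimeric G-protein signalling. It read 6.60, 6.89 and 7.03 on the basal arrays, 8.75, 9.11 and 8.85 with FSH, and 8.99, 8.55 and 9.71 with cAMP. The stimulated arrays lay above the basal ones, and FSH and cAMP overlapped. The rise was 2.06 ± 0.28 with FSH (4.18-fold, adjusted p 9.4e-06) and 2.24 ± 0.28 with cAMP (4.73-fold, adjusted p 2.8e-06). With FSH its level was 6.71, 6.22 and 6.78 at 5 µM and 6.72, 6.08 and 6.50 at 10 µM HPTE, overlapping the basal arrays at both doses. HPTE gave -2.33 ± 0.28 at 5 µM (adjusted p 3.1e-06) and -2.47 ± 0.28 at 10 µM (5.54-fold lower, adjusted p 5.7e-07). The interaction with FSH against basal cells was -2.05 ± 0.40 (adjusted p 0.00381).

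With cAMP, Rasd1 read 7.86, 7.69 and 8.30 at 10 µM HPTE, below all cAMP arrays without HPTE and above all basal arrays at either dose. The effect of HPTE was -1.13 ± 0.28 (2.19-fold lower, adjusted p 0.0319). That call was lost without cAMP array 1 (-1.17, adjusted p 0.0795) or 3 (-0.81, adjusted p 0.254) at 0 µM, or without array 1 (-1.08, adjusted p 0.118) or 2 (adjusted p 0.179) at 10 µM, with values from -1.39 to -0.81. It did not pass with only the compared groups (adjusted p 0.312) or from arrays 1 and 2 alone (adjusted p 0.157). The rise with FSH at 1 µM HPTE, 1.31 ± 0.28 (adjusted p 0.00575), was lost without array 1 or 3 with FSH (1.14 to 1.65 over all 6).

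Sgk1 encodes a kinase of the AGC family that is induced by FSH in granulosa cells. It read 11.72, 11.52 and 11.62 on the basal arrays, 13.49, 12.63 and 13.48 with FSH, and 12.50, 13.40 and 12.58 with cAMP. Both stimulated groups lay above the basal arrays, with array 2 the lowest with FSH and the highest with cAMP. The rise was 1.58 ± 0.24 with FSH (3.00-fold, adjusted p 4.4e-05) and 1.21 ± 0.24 with cAMP (2.31-fold, adjusted p 0.0012). Without both arrays 2 it was 1.87 (adjusted p 1.3e-06) and 0.92 (adjusted p 0.00664), and FSH then stood 0.95 above cAMP (adjusted p 0.0312) where all arrays gave 0.37 ± 0.24 (adjusted p 1.000).

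With 10 µM HPTE, Sgk1 read 12.13, 11.78 and 11.71 with FSH, 13.09, 13.14 and 13.03 with cAMP, and 11.57, 11.49 and 11.28 basal. The 3 groups did not overlap. HPTE gave -1.33 ± 0.24 with FSH (2.51-fold lower, adjusted p 0.000384, or -1.10 and 0.0601 from arrays 1 and 2 alone), 0.26 ± 0.24 with cAMP (adjusted p 0.929) and -0.17 ± 0.24 in basal cells (adjusted p 1.000). The difference of the effects with FSH and with cAMP was -1.59 ± 0.34 (adjusted p 0.00936). It did not pass with only the compared groups (adjusted p 0.09) or from arrays 1 and 2 alone (-1.27, adjusted p 0.382). At 5 µM the fall with FSH was -0.92 ± 0.24 (adjusted p 0.0164, lost without FSH array 1 or 3 at 0 µM or array 2 at 5 µM, -1.20 to -0.61 over all 6).

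For the 7 genes with several probe sets, the other 13 probe sets were dimmer, as the choice of the brightest fixes. With FSH 12 of these 13 had the sign of the representative and 1 passed the test (the Crem probe set 1369737_at, 1.33 ± 0.36, adjusted p 0.016), and with cAMP 11 had that sign and none passed. For 10 µM HPTE with FSH all 13 had that sign and 1 passed, the same Crem probe set (-1.19 ± 0.36, adjusted p 0.0351). The Pde4b probe set 1369044_a_at had a mean of 4.22 and ranged by 0.26 over the group means, where 1374157_at had a mean of 10.16 and ranged by 3.11. The Akap12 probe set 1368868_at gave -0.57 ± 0.28 with FSH (adjusted p 0.319) at a mean of 6.16. The Sik1 probe set 1368597_at gave 0.37 ± 0.24 (adjusted p 0.549) at a mean of 6.10. The transcripts that each of these probe sets reads were not analysed here.

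**Figure D4:**
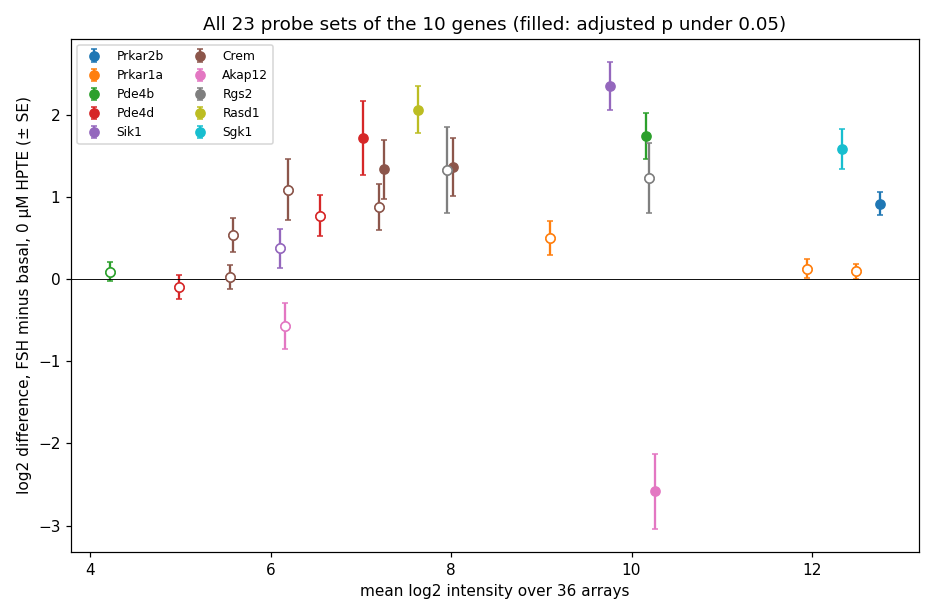
Log2 difference ± SE between FSH and basal cells without HPTE for all 23 probe sets, against the mean log2 intensity of the probe set over 36 arrays, filled where the adjusted p was under 0.05. The filled points lie at mean levels above 7, and the other probe sets lie nearer to 0 than the brightest one of their gene, except those of Prkar1a and Rgs2.

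Over the 12 group means, Sik1 and Sgk1 followed each other most closely among the 10 (Pearson r 0.98), followed by Crem with Pde4d and Pde4b with Pde4d (both 0.93). Akap12 ran against Rasd1 (r -0.90). Rgs2 was nearest to 0 with Prkar2b (r -0.01) and Akap12 (-0.04), and highest with Crem (0.65) and Pde4d (0.64). These values share the arrays and have no test. Among 7107 other genes above the median level, the genes most like each of the 8 that passed with FSH were Foxl2 for Prkar2b (r 0.98), Tmem14a for Pde4b (0.99), Plxnc1 for Sik1 (0.99), Mob4 for Crem (0.98), Igfbp7 for Akap12 (1.00), Zfp385b for Rasd1 (0.99) and Cyp11a1 for Sgk1 (0.99), and among 7108 Man1a1 for Pde4d (0.96). Cyp11a1 is the enzyme that starts steroid synthesis from cholesterol, and Foxl2 is a transcription factor of granulosa cells.

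Of 99 other genes of the pathway listed, 91 were measured. With FSH 3 rose and 11 fell, and with cAMP 1 rose and 12 fell, shares of the list to be read beside the 8.06% and 7.18% of all probe sets. Each listed gene was read from its brightest probe set. Of the probe sets above the median level, 15.2% were called with FSH and 14.3% with cAMP, so the list was called about as often as these. The cyclase Adcy9 rose with FSH (0.82 ± 0.24, adjusted p 0.0294), as did the factor Creb3l2 (0.75 ± 0.24, adjusted p 0.047), and the phosphodiesterase Pde1a rose with both (0.45 ± 0.13 with FSH, adjusted p 0.0323, and 0.47 ± 0.13 with cAMP, adjusted p 0.0273). Of 14 anchoring proteins, 4 fell with FSH and 5 with cAMP, where 4.18% and 4.49% of all probe sets did. Among them were Akap5 (-1.66 ± 0.51, adjusted p 0.0392, and -1.89 ± 0.51, adjusted p 0.0171) and Akap13 (-1.27 ± 0.34, adjusted p 0.0153, and -1.43 ± 0.34, adjusted p 0.00609). The kinase inhibitors Pkia and Pkig fell with both. Pkia gave -0.48 with FSH (adjusted p 0.0195) and -0.49 with cAMP (adjusted p 0.0169), and Pkig gave -0.51 (adjusted p 0.00318) and -0.49 (adjusted p 0.00584).

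With FSH, 2 of 13 CREB factors, coactivators and salt-inducible kinases were lower and 1 higher, 1 of 13 phosphodiesterases was lower and 1 higher, and 1 of 19 RGS and desensitization genes was lower, where 4.18% of all probe sets were lower. The CREB relative Creb5 fell with FSH (-1.90 ± 0.35, adjusted p 0.000434) and with cAMP (-2.14 ± 0.35, adjusted p 0.000107). Sik2, a relative of Sik1, fell with FSH (-1.21 ± 0.31, adjusted p 0.0106). Pde7a fell with FSH (-0.91 ± 0.24, adjusted p 0.0149) and cAMP (-0.97 ± 0.24, adjusted p 0.0101), and Rgs3 with FSH (-1.15 ± 0.22, adjusted p 0.000627) and cAMP (-1.34 ± 0.22, adjusted p 0.000104). With FSH, 10 µM HPTE raised 9 of the 91 and lowered 1 (8.45% of all probe sets called, 16% of those above the median level). FSH against basal cells at 10 µM called none of the 91 (0%). Raised were Akap1, Akap13, Msn, Creb5, Sik2, Pde7a, Rapgef2, Pkig and Rgs3, and Atf1 was lowered (-0.33 ± 0.10, adjusted p 0.0444). This comparison and FSH against basal cells share the FSH arrays without HPTE, so their values are not independent. Akap1, an anchoring protein of the mitochondrial outer membrane, was higher with 10 µM HPTE in basal cells (1.05 ± 0.20, adjusted p 0.00378), with cAMP (0.97 ± 0.20, adjusted p 0.00565) and with FSH (1.73 ± 0.20, adjusted p 5.7e-07).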

How the data were processed

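Transcript levels were measured on 36 Affymetrix Rat Genome 230 2.0 arrays, each from 40 ng of total RNA that was amplified and labelled, per the labels' protocols. The values deposited by the authors are intensities for each probe set, and the submitters' processing notes name RMA, which corrects background, normalizes and summarises probes. The series' design text names ArrayAssist, with no version for either. The values themselves show a linear scale. Each array's median intensity was 65.8 to 73.7. The number of arrays limits the precision.

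The 57 control probe sets of 31099 were left out, and the log2 of each intensity was fitted with limma 3.58.1 in R 4.3.3 (12 group means, contrasts, eBayes, 24 residual degrees of freedom). Each of 24 comparisons, 3 of them interactions, was adjusted by Benjamini-Hochberg over 31042 probe sets at an adjusted p under 0.05, two-sided. The platform table gave 1 symbol for 20826 probe sets, several for 436 and none for 9780, and only the first kind was named. The genes, lists, comparisons and alternatives were chosen with earlier results of these data known. Named genes were the 10 members, list genes called in the 3 comparisons given, up to 3 per list and direction, and the closest of the 3 best-correlated genes. The fit was tested on simulated data with independent noise on each array. That cannot tell how it performs where arrays of the same number share deviations from their group means, as here (median correlation 0.51).

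The array numbers pair samples where every pair's correlation of deviations from group means is above 0.1. That held in all comparisons but FSH against cAMP without HPTE, where array 2 gave -0.12, and its origin is the data, since the labels give numbers only. Blocked values stand beside results only where they change a call.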

Additional observations from a re-analysis of the deposited data

Results flagged for a closer look

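The effect of 10 µM HPTE, as a log2 difference from 0 µM, differed with the stimulus in 11 interaction tests by limma (adjusted p under 0.05). These 11 are drawn from all 23 probe sets and include a dimmer Crem probe set. The effect with FSH minus that in basal cells was -0.79 for Prkar2b, -1.44 for Pde4b, -1.75 for Sik1 and -2.05 for Rasd1. Of all probe sets, 2.17% were called there. On leaving out 1 array the call was lost in 9 of 12 fits for Prkar2b, 9 for Pde4b, 3 for Sik1 and 0 for Rasd1.

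On 1.88% of all probe sets, the effect with FSH differed from that with cAMP. On leaving out 1 array the call was lost in 4 of 12 fits for Prkar2b and 8 for Sik1. With only the compared groups Pde4d, Sik1 and Sgk1 did not pass. The effect with FSH minus that with cAMP was -0.89 for Prkar2b, -3.05 for Pde4b, -2.95 for Pde4d, -1.53 for Sik1, -1.59 for Sgk1 and 3.92 for Akap12. It was -1.93 for the Crem probe set 1369737_at (adjusted p 0.0418), and -1.82 for the brighter Crem probe set (adjusted p 0.0515).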

How the results depend on the processing

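With FSH against basal cells without HPTE, 8 of the 10 genes were called. The count was 4 with the second probe sets and 6 with only the compared groups. It was 6 from arrays 1 and 2 alone and 6 to 9 on leaving out 1 array. The 3 genes with 1 probe set (Prkar2b, Rasd1 and Sgk1) kept it in every second-probe-set count. Of the 7 others, only Crem, and Pde4d with FSH at 1 µM HPTE, were called from a second probe set in this paragraph. With cAMP, 6 were called, 5 with only the compared groups and 6 on leaving out any array. With the second probe sets 3 were called, all of them genes with 1 probe set, so no second probe set passed. Between FSH and cAMP 0 were called, 5 without both arrays 2 and 0 on leaving out 1 array. For 10 µM HPTE with FSH, 7 were called, 4 with the second probe set, 5 from arrays 1 and 2 alone, 6 with only the compared groups and 6 to 8 on leaving out 1 array. For 10 µM HPTE in basal cells 0 were called, 1 with only the compared groups in the fit, 1 with the replicate block and 0 on leaving out 1 array. For 10 µM HPTE with cAMP 2 were called, 1 with only the compared groups, 5 without both arrays 2, 1 from arrays 1 and 2 alone, 4 with the replicate block, 1 with the second probe set and 1 to 3 on leaving out 1 array. With FSH at 1 µM HPTE 8 were called, 0 with only the compared groups, 3 from arrays 1 and 2 alone and 5 with the second probe set. Counts over all probe sets in the refits at 1 µM were not recorded. Pde4b with FSH at 1 µM gave -0.0235 with its second probe set (adjusted p 1), whose mean level was 4.22, against 1.22. The replicate block called 4984 probe sets with FSH against 2502 in the unblocked fit, and only the compared groups 1072. With cAMP the counts were 4709, 2228 and 885. For 10 µM HPTE with FSH they were 5333, 2624 and 1273, with cAMP 1810, 525 and 62, and in basal cells 1059, 316 and 81. Between FSH and cAMP without HPTE, 680 probe sets were called without both arrays 2, and 59 without FSH array 2, against 0. For HPTE with cAMP, 792 were called without both arrays 2 and 330 from arrays 1 and 2 alone. From arrays 1 and 2 alone, 2013 probe sets were called with FSH without HPTE and 1972 for 10 µM HPTE with FSH. For the 10 genes, read from their brightest probe sets, the replicate block changed no call given in the report other than those printed there. Blocked results were not read for the markers, the other pathway genes or the other probe sets. The cause of these differences was not tested. The levels of these genes come from 3 arrays a group, and the dim probe sets limit what can be read from them.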
